A study of Mus musculus with 2 samples.

Results

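The genes for the proteins of the cytosolic ribosome were examined for open chromatin in LβT2 cells, an immortalized mouse gonadotrope line. A gene was taken when it was protein-coding in GENCODE vM21 on GRCm38, lay on chromosomes 1 to 19 or X, and had a symbol made of Rpl or Rps, a number and at most 1 letter of a, l, x or y, or was Rplp0, Rplp1, Rplp2 or Rpsa. This rule used names and no measured value. It gave 80 of 21755 protein-coding genes, 49 for the large and 31 for the small subunit, spread over 19 chromosomes with 14 of them on chromosome 7. Another 22 protein-coding genes with symbols that start with Rpl or Rps fell outside the rule, among them the kinases of S6, and 294 pseudogenes were named for a ribosomal protein.

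Chromatin accessibility had been profiled by ATAC-seq, in which a transposase inserts sequencing adapters where DNA is exposed, in 2 replicate samples of 1 group. Both received 2 nM GnRH in 4 pulses given every 2 h over 6 h 45 min and were harvested 45 min after the last pulse, at passage 21. The line carries a viral T antigen driven by the regulatory region of rat Lhb, and both samples share this. Samples without GnRH were not analysed here. Groups could therefore not be compared, and each value describes the treated state with n = 2.

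The authors' MACS2 lists held 58519 and 64984 peaks for replicates 1 and 2. The level of a peak is given as its −log10 q, which ranks peaks within a list, and as tags, the number of extended reads over the summit, which follows from the deposited fold and p-value. Peaks in the lists started at 10 and 11 tags and had medians of 14 and 16. Where a gene had no peak, none was detectable with this number of reads and the background of the authors' setting, for which the genome size of the fly had been given. Among 9 gonadotrope markers, 6 had a promoter peak in both replicates, among them Cga, Egr1, Gnrhr, Lhb and Nr5a1, Foxl2 and Gata2 had one in replicate 2 and Pitx1 in neither, and 0 of 7 genes of the other pituitary lineages had one in either replicate.

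Every cytosolic ribosome holds 1 copy of nearly every ribosomal protein, and a growing cell makes these proteins in large and matched amounts. Their genes lie apart from each other, most are transcribed from short promoters rich in CG dinucleotides, and their RNAs begin with a C followed by a run of pyrimidines, the 5′ terminal oligopyrimidine tract, through which mTOR and the RNA-binding protein Larp1 govern their translation. Many have left intronless copies in the genome, the processed pseudogenes, which lack the promoter of the parent. In gonadotrope cells, GnRH is known to stimulate cap-dependent translation.

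The starts of the genes are shown first, because the tract sits there. Genes with long runs, Rps10 as 1 without a peak, Rpl24 with a short run and the 4 paralogs were picked to show the range, and they are not a sample of all. RefSeq promoters were at hand for 60 of the 80 genes. Each line gives 30 bases of GRCm38, 5′ to 3′, from 15 before the RefSeq start, with the longest run of C and T in capitals:
Rpl15, chr14:18270972-18271001, minus strand: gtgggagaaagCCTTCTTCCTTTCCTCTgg
Rpl7a, chr2:26910792-26910821, plus strand: aTTCCCTCTTCTTTCTTTCTCCagcagccg
Rpl27a, chr7:109519180-109519209, plus strand: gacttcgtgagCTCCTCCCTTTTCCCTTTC
Rpl35, chr2:39005117-39005146, minus strand: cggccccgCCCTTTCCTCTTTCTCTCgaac
Rps6, chr4:86857353-86857382, minus strand: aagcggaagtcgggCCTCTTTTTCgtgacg
Rps10, chr17:27635230-27635259, minus strand: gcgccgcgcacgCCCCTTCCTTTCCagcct
Rpl24, chr16:55966260-55966289, plus strand: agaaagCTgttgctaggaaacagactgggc
Rpl10l, chr12:66284387-66284416, minus strand: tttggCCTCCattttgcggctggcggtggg
Rpl39l, chr16:10170213-10170242, plus strand: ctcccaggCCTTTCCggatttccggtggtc
Rpl3l, chr17:24727811-24727840, plus strand: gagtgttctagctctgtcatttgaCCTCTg
Rps27l, chr9:66946071-66946100, plus strand: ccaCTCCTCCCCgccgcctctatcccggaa

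At the RefSeq start, the run of Rpl7a spanned 21 bases, that of Rpl27a 19, that of Rpl35 18 and that of Rpl15 17. At the main GENCODE start, the longest run had 5 bases in Rpl7a, 5 in Rpl27a, 3 in Rpl35 and 4 in Rpl15. The long runs of these genes were thus not found at that start. At the RefSeq start, the run had 10 bases in Rps6 and 13 in Rps10, but 2 in Rpl24. Rpl10, Rpl26, Rpl41 and Rps13 had 3 each there. The runs of Rpl26, Rps13 and Rpl27a reached the edge of the bases read and may continue beyond it. At the main GENCODE start, the longest run had 14 bases in Rpl26, 5 in Rps13, 3 in Rpl24 and 4 in Rpl10 and Rpl41. Among the paralogs, the run at the RefSeq start had 5 bases in Rpl10l, 7 in Rpl39l and 5 in Rpl3l. These are expressed mainly in testis, testis and striated muscle. The run had 9 bases at a start of Rps27l. At the RefSeq start, ubiquitous genes thus lay on both sides of the paralogs, with Rpl10, Rpl24 and Rpl41 below them. Within 20 bases of a RefSeq start on either side, the median run was 7 bases in the 60 genes and 5 in all, and a run of 10 or more pyrimidines was present in 22 of the 60 genes (36.7%) and in 8.65% of the 16433 protein-coding genes of the table. At the main GENCODE start the shares were 20% (16 of 80) and 7.15%, and for runs of 8 or more 36.25% (29 of 80) and 15.4%. Among the genes without the 4 paralogs, the median run at the GENCODE start was 5 bases where both replicates had a promoter peak, 7.5 where replicate 2 alone had one and 6 where neither had.

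Promoter peaks were more frequent at ribosomal protein genes than at protein-coding genes at large. A promoter was taken as 1 kb around any annotated start, and the highest peak overlapping it was used. In replicate 1, 47 of the 80 genes (58.75%) had a promoter peak against 33.1% of all protein-coding genes, and in replicate 2, 69 (86.25%) against 45.4%. Both replicates had one at 46 genes (57.5%, against 31.7%), and neither at 10 (12.5%, against 53.2%). The mean share over replicates was 72.5% ± 19.4 (SD, n = 2), beside 39.2% ± 8.65 for all protein-coding genes. The remaining genes had a peak in 1 list, 23 of them in replicate 2 and 1, Rpl29, in replicate 1. The large subunit genes had a peak in 30 and 41 of 49 and the small subunit genes in 17 and 28 of 31.

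These genes differ from others in the base composition of their promoters and in the number of annotated starts, and the shares were compared within such classes. Promoters were counted as CpG-rich when the 500 bases on each side of the main start had a GC content of at least 55% and a ratio of observed to expected CG of at least 0.65. This held for 67.5% of the ribosomal protein genes and 36.9% of all protein-coding genes. Among CpG-rich genes, a peak was present at 57.4% and 88.9% of ribosomal protein genes in replicates 1 and 2, and at 51.8% and 71.5% of all. Among the others it was present at 61.5% and 80.8% of the 26 ribosomal protein genes and at 22.2% and 30.1% of all. The rates of CpG-rich and other ribosomal protein genes differed by less than those of the replicates, and the gap to the rest of the genome lay mainly in the genes outside the CpG-rich class. Promoters outside the class were not alike, however. Their median ratio of observed to expected CG was 0.73 in ribosomal protein genes and 0.30 in all, at a GC content of 50.9% and 50.4%. That comparison is therefore not one of like promoters. The class was set at the main start, while the peak could lie at any start. The class therefore does not always describe the promoter where the peak was found. Ribosomal protein genes also had more annotated starts, with a median of 6 against 3, but the stretch searched was not longer, with a median of 3294 bp against 4002 bp. Of genes with 5 or more starts, 63.5% and 88.5% of ribosomal protein genes and 47.8% and 65.2% of all had a promoter peak.

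**Figure D1:**
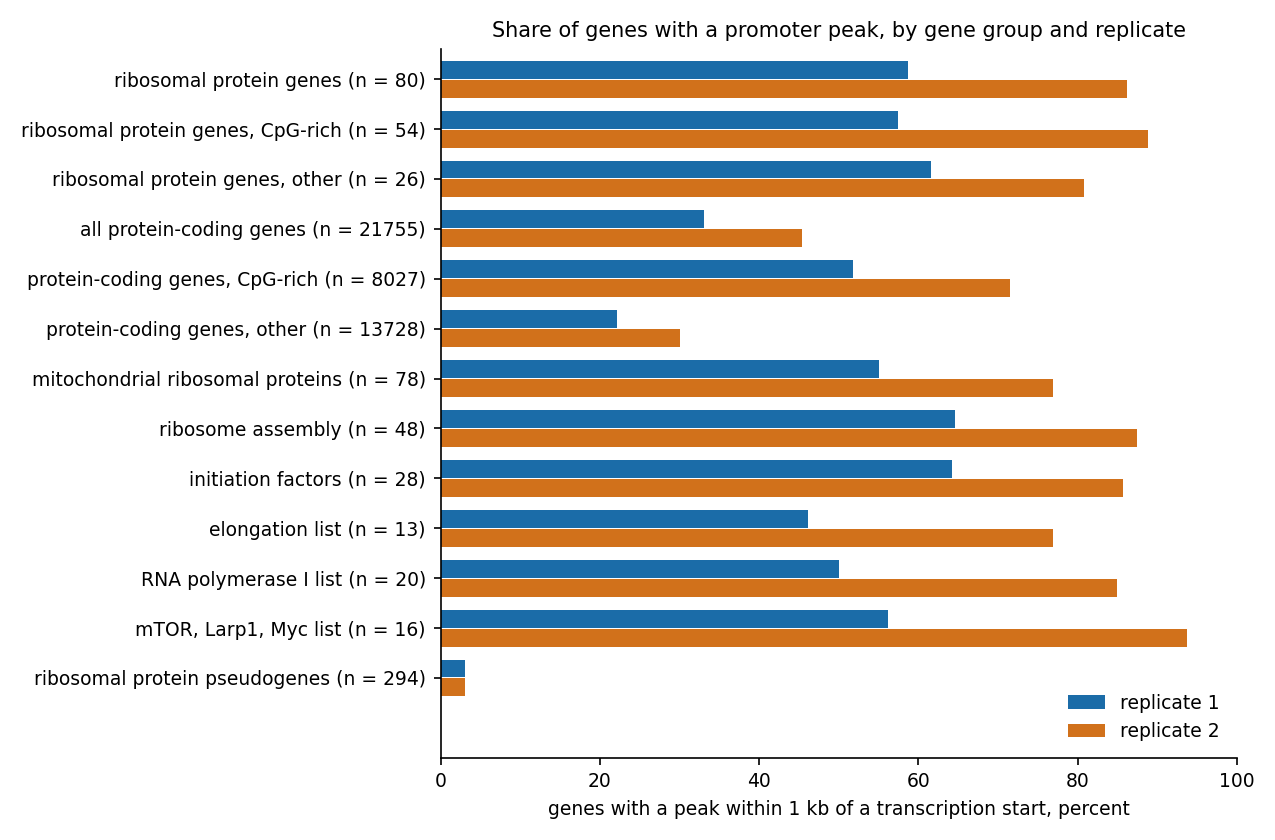
Share of genes with a promoter peak in percent (x axis, from 0) for ribosomal protein genes, their CpG-rich and other members, all protein-coding genes and further gene groups, with n in brackets and 1 bar per replicate. The bars of ribosomal protein genes reach 58.75% and 86.25%, those of all protein-coding genes 33.1% and 45.4%, and those of ribosomal protein pseudogenes 3.06% in each replicate.

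Where a peak was present, its level was ordinary. Over ribosomal protein genes the median −log10 q in replicates 1 and 2 was 6.22 and 13.4, on average 9.82 ± 5.09 (SD, n = 2), beside 6.97 and 12.5 for all protein-coding genes with a promoter peak. In tags at the summit the medians were 18 and 28 against 19 and 27, and in peak width 376 and 502 bp against 390 and 508 bp. The ribosomal protein genes above the median of all protein-coding genes with a peak were 18 of 47 (38.3%) in replicate 1 and 37 of 69 (53.6%) in replicate 2, where 47.8% and 47.5% of all such genes were above it because of ties. A −log10 q of at least 10 was reached by 13 of the 80 genes in replicate 1 and by 44 in replicate 2, beside 11.6% and 27.5% of all protein-coding genes, and in both by 13 genes beside 11.3%. With genes without a peak counted at 0, the mean of the medians was 7.501 for ribosomal protein genes and 0 for all protein-coding genes. That 0 follows from detection and not from level, since only 33.1% and 45.4% of all protein-coding genes had a promoter peak. CpG-rich ribosomal protein genes had medians of 8.54 and 14.8 and the others 5.15 and 9.22, so that the class of promoter that did not separate their detection went with a difference in level. That difference was not tested, since genes are not replicates.

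**Figure D2:**
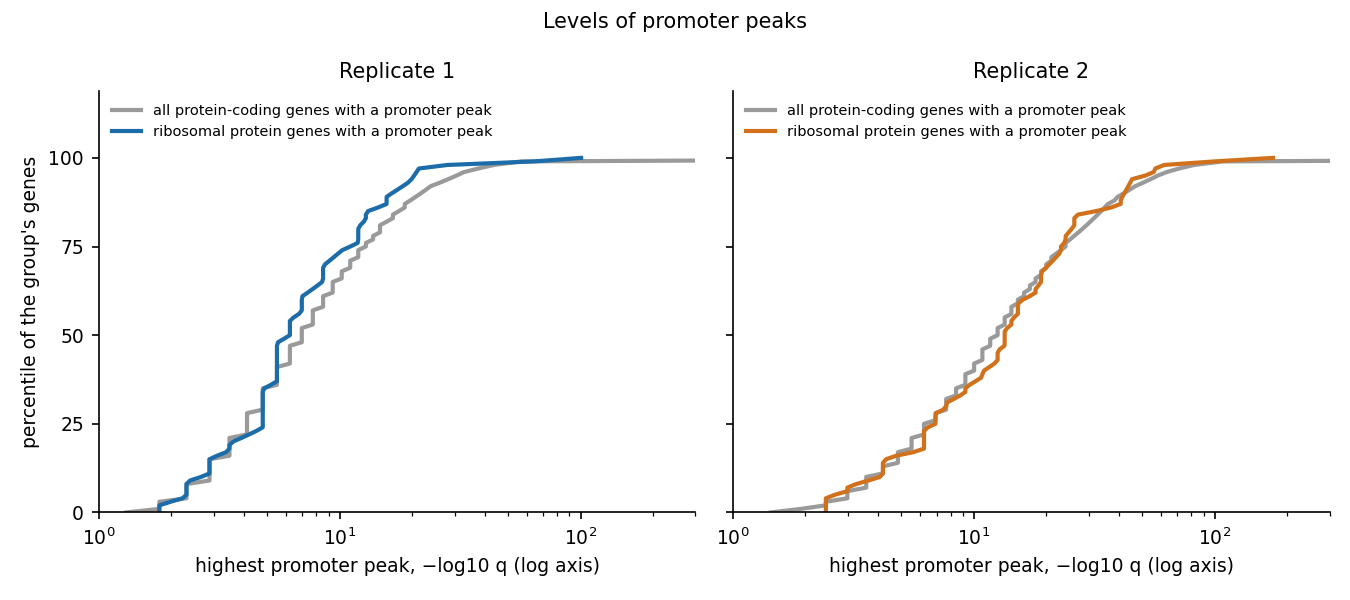
Cumulative distribution of the −log10 q of the highest promoter peak (x axis, log scale from 1 to 300) in percentiles of the genes with such a peak (y axis), for ribosomal protein genes in colour and all protein-coding genes in grey, 1 panel per replicate. The medians are 6.22 against 6.97 in replicate 1 and 13.4 against 12.5 in replicate 2, and a few protein-coding genes lie beyond the right edge.

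Rpl15 stood far above the other ribosomal protein genes. It encodes a protein of the large subunit and lies at chr14:18267823-18271391. The −log10 q of its peak was 100.6 and 174.5 (mean 138 ± 52.3, SD, n = 2), with 95 and 147 tags at the summit, in an intron of an annotated transcript 97 and 102 bp before the nearest start. The peak spanned chr14:18270835-18271499 in replicate 1 and chr14:18270340-18271871 in replicate 2. The promoter is shared with Nkiras1, an inhibitor of NF-κB signalling transcribed the other way, for which this was also the highest peak. No peak within 1 Mb was higher.

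The surroundings of Rpl15 were rich in peaks as a whole. Within 1 Mb on each side of its start lay 175 and 181 peaks, more than around 97.9% and 98.0% of protein-coding genes, for which the median was 36 and 45. The median −log10 q of the peaks near Rpl15 was 2.88 and 3.57. Chromosome 14 makes up 4.74% of the length of the chromosomes used and held 15.03% and 13.5% of the peaks of each list. The neighbour Nr1d2, a nuclear receptor of the circadian clock, had a promoter peak of 80.1 and 82.0, and Thrb, a thyroid hormone receptor, one of 21.7 and 39.5. Ube2e1 and Ube2e2, ubiquitin-conjugating enzymes, had 13.4 in replicate 2 alone, and 2.31 and 9.22. The parts that the density of the region and its copy number in this line had in the level of Rpl15 were not tested. Rps24, also on chromosome 14, had 84 peaks within 1 Mb in each replicate and a level of 6.22 and 19.98.

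Among the genes that came next behind Rpl15 were Rpl37, Rpl7 and Rps21. Rpl37, a small zinc-binding protein of the large subunit, had 19.7 and 64.5 (mean 42.1 ± 31.7, SD, n = 2), with 33 and 73 tags and a summit 71 bp before a start in both replicates. Rpl7, of the large subunit, had 17.6 and 55.4 (36.5 ± 26.7), and its peak widened from 1010 bp in the first list to 2822 bp in the second, the widest of the group. Rps21, of the small subunit, had 20.7 and 43.1 (31.9 ± 15.8). In each of these 3 genes replicate 2 was the higher, and their order differed between replicates.

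The lowest genes with a peak in both replicates sat close to the threshold of the lists. Rpl32 had 2.31 and 2.43, with 12 and 13 tags. Rpl35a had 2.31 and 3.57, with 12 and 15 tags, Rpl5 had 3.49 and 2.43, with 14 and 13, Rpl19 had 2.31 and 4.19, with 12 and 16, and Rpl35 had 4.80 and 2.99, with 16 and 14. Rpl5 and Rpl35 were the only genes of the 46 that were higher in replicate 1. All 5 encode proteins of the large subunit, and their values overlapped.

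**Figure D3:**
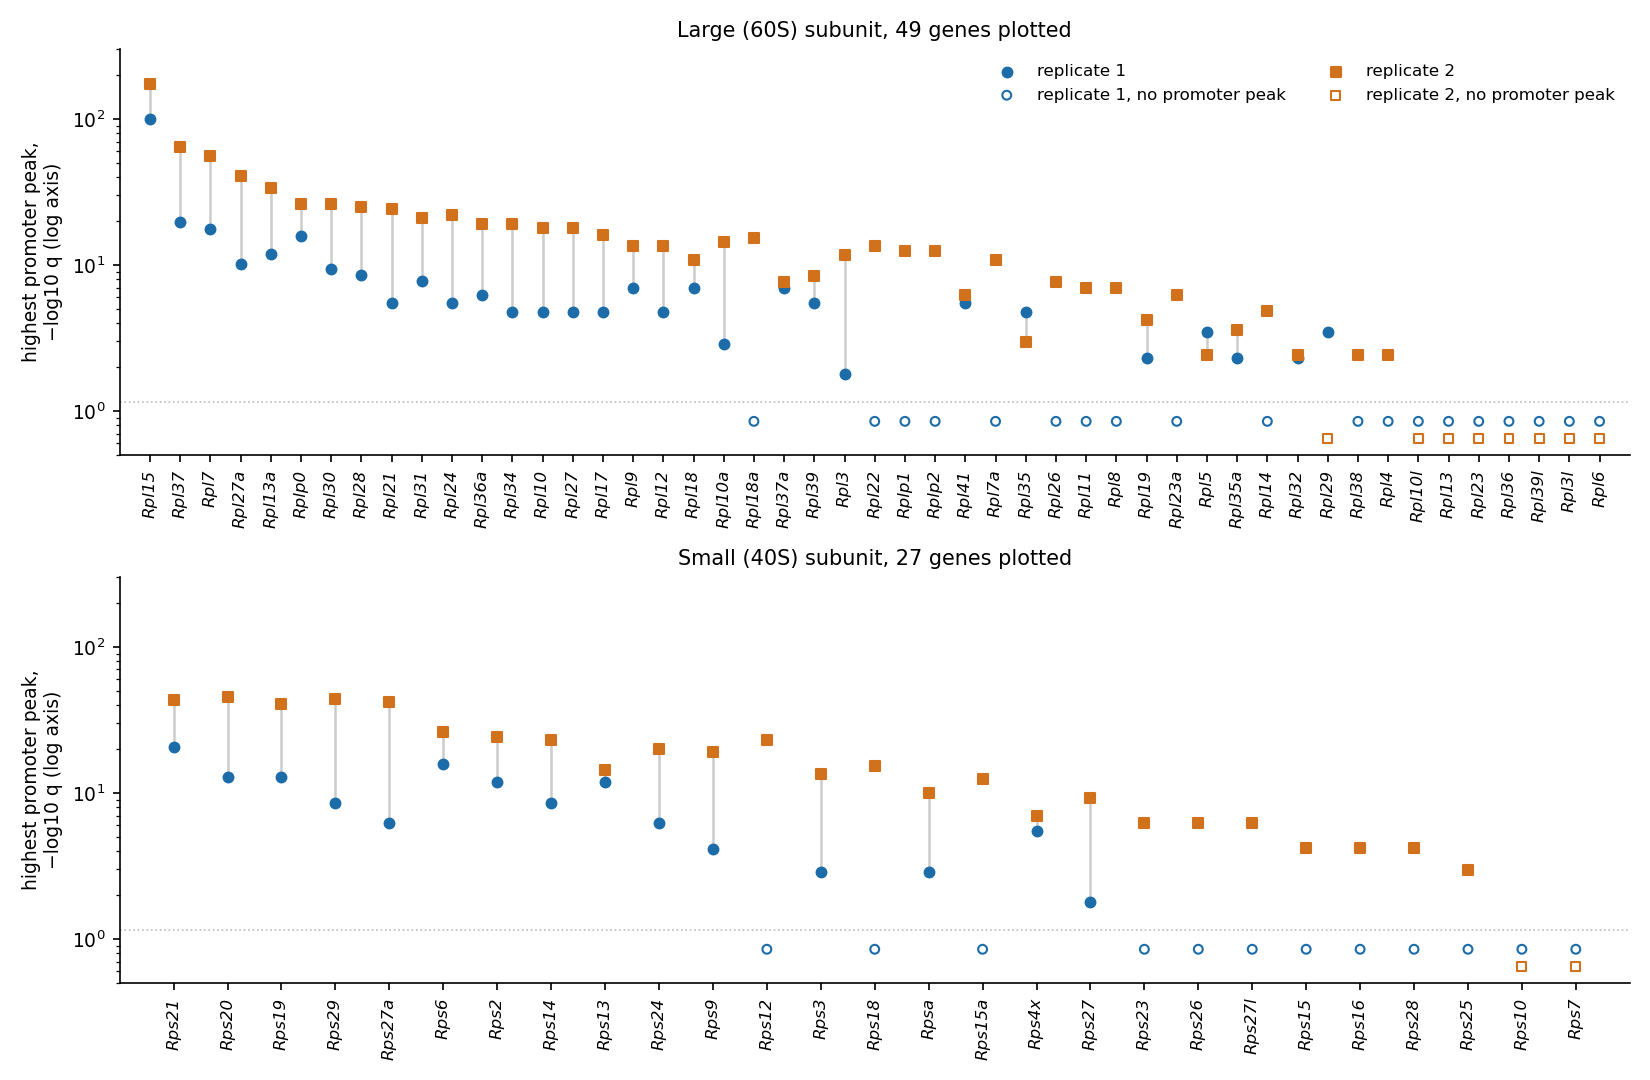
The −log10 q of the highest promoter peak (y axis, log scale) of each large subunit gene (upper panel) and small subunit gene (lower panel), ordered by the mean of the replicates, with a circle for replicate 1 and a square for replicate 2 joined by a line. Open symbols below the dotted line mark genes with no promoter peak in that replicate and have no value on the axis. Rpl15, with 100.6 and 174.5, stands above all others, and 42 of the 44 lines drawn rise to replicate 2. The plot shows 76 of the 80 genes.

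In all, 10 ribosomal protein genes had no promoter peak in either replicate. Of these, 7 encode components of every ribosome, among them Rps7 and Rps10 of the small subunit and Rpl6, Rpl13, Rpl23 and Rpl36 of the large subunit. The other 3 were the paralogs Rpl3l, Rpl10l and Rpl39l. The nearest peak lay between 3.31 and 171 kb from a start of these genes in replicate 1 and between 2.99 and 59.5 kb in replicate 2, with Rpl36 and Rpl3l at the near end of the range in both. For Rps7 and Rpl13 it lay 42.2 and 59.7 kb away in replicate 1 and 42.2 and 59.5 kb in replicate 2. Base composition did not mark out the 7 genes. Their median GC content was 56.6% and their median ratio of observed to expected CG 0.82, beside 56.75% and 0.83 for the 46 genes with a peak in both replicates. The lists do not give the tags at a place without a peak.

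The 23 genes with a peak in replicate 2 alone had lower levels there than the 46 genes detected in both. Their median was 6.93 and 20 tags, with a range of 13 to 38 tags, beside 18.999 and 34 tags. Rps12, with 38 tags and 23.0, was the highest of them, and Rpl4 and Rpl38, with 13 tags and 2.43, the lowest. Rpl29, the single gene with a peak in replicate 1 alone, had 14 tags and 3.49. The groups of 23 and 46 genes were set by detection in replicate 1, and levels went together between the lists. Their difference in replicate 2 is therefore not a separate result, and it was not set beside that of all protein-coding genes.

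The members with particular roles divided as follows. The stalk of the large subunit, which recruits the GTPases of translation, is built on Rplp0, whose promoter had 15.7 and 26.1, while Rplp1 and Rplp2, which form the arms of the stalk, had a peak in replicate 2 alone, each of 12.5 with 27 tags. Rpl5 and Rpl11 bind the ubiquitin ligase Mdm2 together with a small ribosomal RNA when ribosome assembly fails. Rpl5 had 3.49 and 2.43 and Rpl11 had 6.93 in replicate 2 alone, both below the median of their lists of protein-coding genes with a peak. Rps27a, made as a fusion with ubiquitin, had 6.22 and 41.9.

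All 4 genes on the X chromosome had a peak in both replicates, beside 57.5% of the 80 ribosomal protein genes and 31.7% of all protein-coding genes. Rpl10, which completes the large subunit late in its assembly, had 4.80 and 18.03. Rpl36a had 6.22 and 18.999, Rpl39 had 5.50 and 8.44, and Rps4x had 5.50 and 6.93. In replicate 1 these 4 values lay at or below the median of the ribosomal protein genes.

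Of the 4 paralogs, 3 parted from their parents. Rpl3l, Rpl10l and Rpl39l had no promoter peak in either replicate, which also held for 53.2% of all protein-coding genes. Their parents Rpl3, Rpl10 and Rpl39 had one in both replicates, Rpl3 at 1.79 and 11.7. Rps27l, a target of p53 that is not restricted to 1 tissue, had 6.21 in replicate 2 alone, and its parent Rps27 had 1.79 and 9.22. The genes left without the 4 paralogs numbered 76, of which 46 had a peak in both replicates and 7 in neither.

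The list chosen here for the human disorder Diamond-Blackfan anaemia, in which red cell precursors fail, held 16 of the genes and may differ from other lists. Promoters of 9 were marked by a peak in both replicates, 5 in replicate 2 alone and 2, Rps7 and Rps10, in neither. The shares in both and in neither, 56.25% and 12.5%, were near the 57.5% and 12.5% of all 80 ribosomal protein genes. Over all protein-coding genes they were 31.7% and 53.2%. The list ran from Rpl15 at the top to Rpl35a and Rpl5 at the bottom, and Rps19, the gene most often affected, had 12.9 and 40.7.

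Ribosomal proteins whose symbols fell outside the rule were read as well. Rack1, a scaffold on the small subunit, had 10.2 and 18.03, Rps3a1 had 2.31 and 13.4, and the paralog Rpl7l1 had 3.49 and 6.21. Fau, a fusion with a small subunit protein, had 4.84 and Rpl22l1 had 21.0 in replicate 2 alone, and Rpl36al had 4.13 in replicate 1 alone. These 6 thus had a promoter peak in at least 1 list.

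The summits lay close to the start. From the summit to the nearest annotated start, the median distance was 58 and 48 bp in replicates 1 and 2 without regard to side, beside 104 and 84 bp for all protein-coding genes with a promoter peak. It fell within 100 bp at 34 of 47 genes (72.3%) and 53 of 69 (76.8%), beside 48.95% and 55.4%, and within 250 bp at 93.6% and 95.7%, beside 77.3% and 79.7%. Summits on the upstream side numbered 36 of 47 (76.6%) and 50 of 69 (72.5%), beside 67.1% and 65.3% of all, with a median position of 41 and 36 bp before the start beside 51 and 36 bp. Each summit was also placed against the exons and bounds of its own gene, without those of other genes. It was upstream of the gene at 21 and 34 genes, in an exon at 20 and 29 and in an intron at 6 and 5. The exception was Rpl41, whose highest peak in replicate 2 had its summit 1090 bp after the start, beyond the end of this short gene. Since these genes have more annotated starts than most, the distance to the single main start was taken too, with a mean of the medians of 68.5 bp in place of 53 ± 7.07 bp (SD, n = 2). No such value is given here for all protein-coding genes. Among genes with 5 or more starts, the median distance to the nearest start was 50 and 49.5 bp in ribosomal protein genes. In all such protein-coding genes it was 91 and 71 bp.

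**Figure D4:**
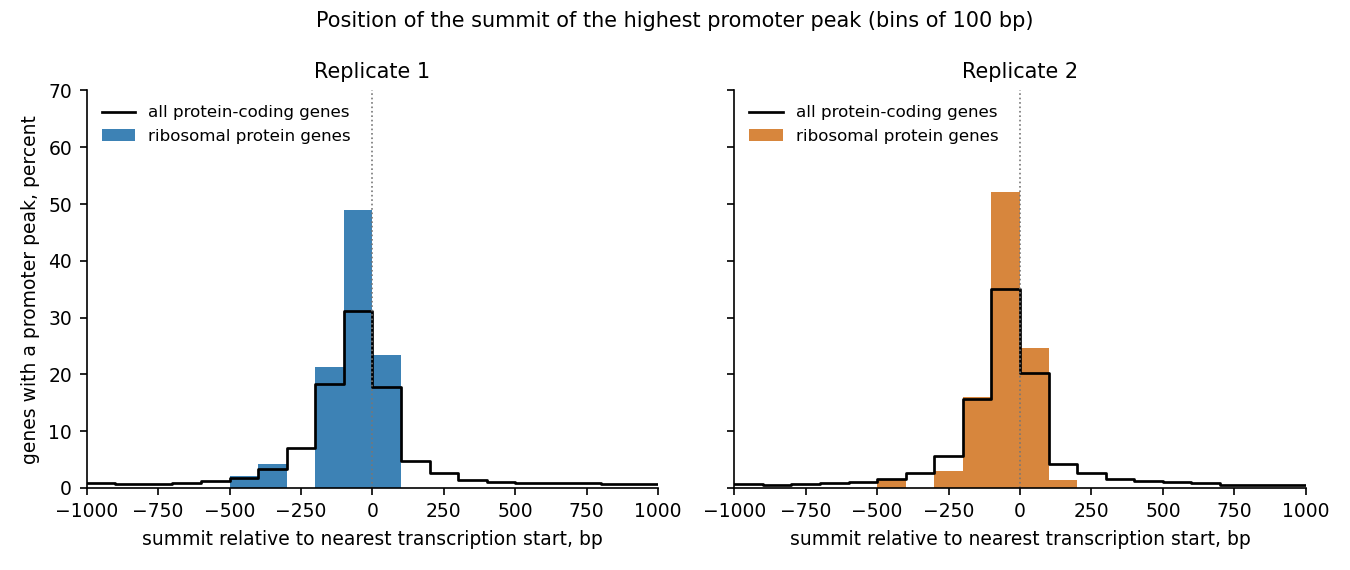
Position of the summit relative to the nearest annotated start (x axis, bp, bins of 100 bp, negative values upstream) as a share in percent of the genes with a promoter peak (y axis), with bars for ribosomal protein genes, a line for all protein-coding genes and 1 panel per replicate. The bars gather within 100 bp of the start, with 72.3% and 76.8% of the genes there against 48.95% and 55.4%.

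A peak in the gene body outside every promoter was present at 1 of the 80 genes (1.25%) in replicate 1 and at 2 (2.5%) in replicate 2, beside 19.8% and 22.8% of all protein-coding genes. The genes are also shorter, with a median length of 3.33 kb beside 17.4 kb, and the part of length in this was not tested. More than 1 promoter peak was present at 6 and 7 genes, 12.8% and 10.1% of those detected against 16.8% and 18.5% of all. No pair of ribosomal protein genes shared a promoter peak. Within 1 kb of a start, 17 of the 80 genes (21.25%, against 12.4% of all protein-coding genes) had the start of a gene on the opposite strand, among them Rpl9 with Lias, Rps24 with Polr3a, Rpl7a with Med22 and Rps18 with Vps52. A peak was present at 70.6% of these 17 genes in replicate 1 and at 100% in replicate 2, and at 55.6% and 82.5% of the other 63. Small nucleolar RNAs, which guide the modification of ribosomal RNA, lay in 29 of the genes, 56 in all. Genes with them had a promoter peak in 62.1% and 86.2% and genes without in 56.9% and 86.3%, close to each other in both replicates.

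The 2 lists ordered the genes alike but not at the same level. Of the 46 genes with a peak in both replicates, 44 were higher in replicate 2, as were 92.7% of all protein-coding genes with peaks in both. The median ratio of tags, replicate 2 to replicate 1, was 1.88 for ribosomal protein genes and 1.64 for all. The rank correlation of −log10 q across these genes was 0.80 (Spearman's rho, n = 46 genes of the same 2 samples) and 0.78 without Rpl15. Genes are not independent replicates, so these values only describe the lists. The peaks overlapped between replicates at 44 of 46 genes (95.7%), beside 93.6% of all, and the summits were a median of 49 bp apart, beside 58 bp. The widest gaps were at Rps27a, with 6.22 and 41.9, 18 and 55 tags, at Rpl3, with 1.79 and 11.7, 11 and 26 tags, and at Rps29, with 8.54 and 44.3, 21 and 57 tags. The summit of Rps29 in replicate 1 was a stretch of 50 bp present at 5 places of the genome.

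Pseudogene copies share exon sequence with these genes, and the summits were examined for stretches that occur more than once. The 50 bp at the summit occurred at more than 1 place of the genome at 3 of 47 genes in replicate 1 (Rpl5, Rpl12 and Rps29) and at 0 of 69 in replicate 2, beside 8.38% and 6.33% of all protein-coding genes with a promoter peak. The pseudogenes themselves were seldom marked. A peak lay within 1 kb of the start at 9 of 294 (3.06%) in each replicate, in 5 cases in both, and a peak overlapped the pseudogene at 5 and 4. Of the 282 pseudogenes more than 2 kb from the start of a protein-coding gene, 8 had a peak in each replicate. The peaks at pseudogenes had a multi-copy summit in 4 of 9 and 7 of 9 cases.

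Sequence matches are given next, because the motifs of several factors are known from ribosomal protein promoters of mammals. The lines show 120 bases before the RefSeq start (for Rps21 and Rps19, the first of several), on GRCm38 and 5′ to 3′, for the highest genes, for genes with several matches and for Rpl13, which had no peak. Capitals mark the letters searched on either strand, namely CCGGAAG for ETS factors, AAGATGG for YY1, GGGCGG for SP1, GCATGCGC for NRF1, TGACGT for the cyclic AMP response element (CRE), CCAAT for NFY, TATAAA for the TATA box, CACGTG for the E-box of Myc and TCGCGA for ZBTB33:
Rpl15, chr14:18270987-18271106, minus strand: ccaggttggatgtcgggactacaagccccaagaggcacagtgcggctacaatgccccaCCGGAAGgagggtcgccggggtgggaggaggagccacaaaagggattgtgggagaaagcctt
Rpl37, chr15:5116493-5116612, plus strand: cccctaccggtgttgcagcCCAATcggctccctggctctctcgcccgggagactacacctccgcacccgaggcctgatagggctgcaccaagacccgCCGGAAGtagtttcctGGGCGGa
Rps21, chr2:180257259-180257378, plus strand: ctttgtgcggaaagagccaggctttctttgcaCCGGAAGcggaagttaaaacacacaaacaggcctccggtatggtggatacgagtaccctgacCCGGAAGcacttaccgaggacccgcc
Rpl27a, chr7:109519075-109519194, plus strand: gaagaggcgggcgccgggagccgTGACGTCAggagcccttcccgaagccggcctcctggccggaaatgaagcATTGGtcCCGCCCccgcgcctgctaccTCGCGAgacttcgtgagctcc
Rps19, chr7:24884472-24884591, plus strand: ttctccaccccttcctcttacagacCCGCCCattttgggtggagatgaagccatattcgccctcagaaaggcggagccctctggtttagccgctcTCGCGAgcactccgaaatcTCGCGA
Rps6, chr4:86857368-86857487, minus strand: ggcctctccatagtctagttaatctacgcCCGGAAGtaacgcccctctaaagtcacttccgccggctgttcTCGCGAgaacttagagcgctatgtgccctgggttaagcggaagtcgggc
Rpl13, chr8:123102230-123102349, plus strand: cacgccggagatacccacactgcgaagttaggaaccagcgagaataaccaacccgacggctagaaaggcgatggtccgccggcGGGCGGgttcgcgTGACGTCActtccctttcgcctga

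The stretches of Rpl15, Rpl37, Rps21, Rpl27a, Rps19 and Rps6 lay wholly within the promoter peak of both replicates. Those of Rps21 held the ETS letters at 2 places and those of Rps19 the ZBTB33 letters at 2 places. The stretch of Rpl13 held SP1 and CRE letters without a peak over it. The ZBTB33 and E-box words read the same on both strands, and a CRE word may be followed by its own reverse, which was counted once per promoter. Matches of different words were counted each on its own where they overlapped.

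Of the 9 words, ZBTB33 and ETS differed most in share from all promoters of the same length. From 250 bases before to 50 after the main GENCODE start, the ZBTB33 letters were present in 15 of 80 ribosomal protein genes (18.75%), beside 3.42% of all protein-coding genes and 6.91% of CpG-rich ones. The ETS letters were present in 23 (28.75%), beside 11.3% and 18.4%. YY1 was present in 12.5% beside 6.29% of all, and CRE in 16.25% beside 8.86%. SP1 letters were present in 48.75% beside 45.7% of all but 77.7% of CpG-rich genes, and NFY in 31.25% beside 38.4%. NRF1 had 5% beside 3.46%, the E-box 11.25% beside 7.82% and TATA 10% beside 12.5%.

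At the summits, ZBTB33 and ETS letters were again more frequent than in all genes, while other words changed. In the 200 bp centred on the summit of the highest peak, ZBTB33 letters were present at 21.4% of 70 ribosomal protein genes beside 4.48% of all protein-coding genes with a promoter peak, and ETS at 25.7% beside 16.0%. TATA letters were present at 11.4% beside 2.36%. Around the main start they had been at 10%, beside 12.5% of all protein-coding genes and 4.80% of CpG-rich ones. The E-box, at 5.71% beside 7.33%, and SP1, at 45.7% beside 50.1%, were now below all genes, and CRE, at 11.4% beside 10.1%, was near them. The 8 genes with TATA letters around the main start included Rpl3, Rpl30, Rpl36a, Rplp0, Rps2, Rps20 and Rps28. With the RefSeq starts, any of several per gene, ETS letters were present at 25 of 60 ribosomal protein genes (41.7%) beside 13.4%. ZBTB33 letters were present at 13 (21.7%) beside 3.96%.

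The matches did not line up with detection in 1 way. Of the 10 genes without a promoter peak, 3 had ETS letters and 0 had ZBTB33 letters, and of the 46 with a peak in both replicates, 11 and 7 had them. Of the 15 genes with ZBTB33 letters, 7 had a peak in both replicates and 8 in replicate 2 alone. A match is a stretch of letters and says nothing of binding, and no factor was measured here.

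**Figure D5:**
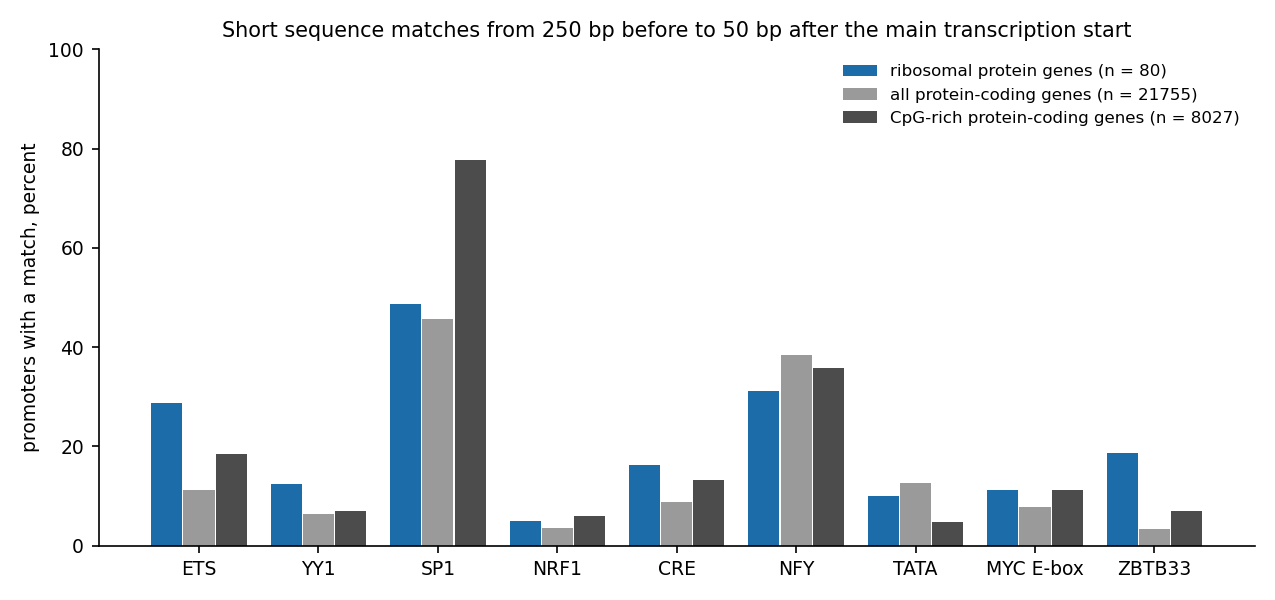
Share of promoters in percent (y axis, from 0) that hold each searched word (x axis) from 250 bp before to 50 bp after the main start, for ribosomal protein genes, all protein-coding genes and CpG-rich protein-coding genes. ZBTB33 is present in 18.75%, 3.42% and 6.91% and ETS in 28.75%, 11.3% and 18.4%, while SP1 is more frequent in CpG-rich genes (77.7%) than in ribosomal protein genes (48.75%).

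Other genes of translation were detected at rates near those of the ribosomal protein genes. Of 78 mitochondrial ribosomal protein genes, whose products form the separate ribosome of mitochondria, 43 (55.1%) and 60 (76.9%) had a promoter peak, with medians of 6.22 and 12.5. Their summits lay within 100 bp of the start at 72.1% and 76.7% of the genes detected. Those with a peak in both replicates ran from Mrpl27, with 2.31 and 2.99, to Mrpl50, with 60.7 and 102. Of 48 genes of ribosome assembly, 31 and 42 had a peak, those in both replicates running from Fbl, the methyltransferase of ribosomal RNA, with 3.49 and 4.84, to Rrs1, with 50.1 and 75.2. Of 28 initiation factors, 18 and 24 had one, those in both replicates running from Eif3g, with 5.50 and 6.93, to Eif5b, with 19.7 and 54.1. The elongation list, which also holds genes with a pyrimidine tract of other function, had 6 and 10 of 13, without a peak at Eef2, Btf3 and Eif5a2. Tpt1, with 11.95 and 32.6, was not its highest gene by the mean of the replicates. Of 20 genes of RNA polymerase I and its factors, which make ribosomal RNA, 10 and 17 had a peak, and Ubtf was among the 3 without. Of 16 regulators of the tract and of ribosome production, among them Mtor, Larp1 and Myc, 9 and 15 had a peak and 1, Eif4ebp2, had none in either replicate.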

How the data were processed

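ATAC-seq had been run on 2 replicate samples of LβT2 cells under 1 condition. Per the methods, paired-end reads were mapped with bowtie2 to GRCm38, duplicate reads were removed and peaks were called with MACS2 for each replicate on its own, with the fly genome-size preset. Tool versions and an input control are not given in the sources used here. The deposited lists hold, as the authors' MACS2 wrote them, the position, the summit, a score, the ratio of pileup to background at the summit (fold enrichment), −log10 p and −log10 q of every peak.

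Tags per summit and a background of 3.05 and 3.54 tags were obtained by inverting the fold and p formulas of MACS2, and whole tags returned the deposited −log10 p of 58447 and 64878 checked peaks to within 1.2e-04. Their number limits the precision of a level. A promoter was 1 kb around any GENCODE vM21 start, overlapped by at least 1 bp, and the peak with the highest −log10 q was used. Main starts came from APPRIS principal transcripts, promoter sequences from RefSeq on GRCm38.p6, and summit copies from the 50 bp at the summit on either strand of GRCm38. The samples are described as independent, but not whether they came from separate cultures, so the spread between them may be technical. With 1 group no test was made, and genes are described by counts and medians beside all protein-coding genes.

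The members and lists were chosen with earlier results of these data known. Genes were named by a rule, namely those without a promoter peak in a replicate, the 5 highest and 5 lowest with a peak in both, the 3 with the largest ratio between replicates, members of the role lists, ribosomal proteins with other symbols, and the highest and lowest of other translation genes. Rps19, Rps24, Rpl9, Rpl7a, Rps18, Rpl41, Rpl26, Rps13, the neighbours of Rpl15, genes listed for a motif or a multi-copy summit and those behind the printed sequences were named after their values were seen. Alternatives concerned the threshold on q, the promoter, the start, the summit, the comparison genes, the motif window and each replicate. The software was pandas 2.3.3, numpy 2.4.6, numba 0.67.0, scipy 1.17.1, pysam 0.24.0 and matplotlib 3.10.9 under Python 3.11.15, and the steps were tested on simulated data. Read coverage, fragment sizes and expression were not analysed here, and a few genes that the rule would name are not reported here.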

Additional observations from a re-analysis of the deposited data

How the results depend on the processing

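The number of ribosomal protein genes with a promoter peak in both replicates, 46, depended on the threshold of the lists. It was 30 of 80 with peaks of −log10 q of at least 5, beside 20.9% of all protein-coding genes. With at least 10 it was 13 of 80, beside 11.3%. Promoters of 250 bp or 2 kb, the main start or a summit inside the promoter gave 45 or 46, and 46 also without the 4 paralogs. For the first 4 of these settings the shares of all protein-coding genes were 29.1%, 33.2%, 29.3% and 31.0%. Leaving out replicate 2 and replicate 1 in turn gave 47 and 69 genes, medians of 6.22 and 13.4, shares above the median of 38.3% and 53.6%, summit distances of 58 and 48 bp, and 3.06% of pseudogenes in each case. The median distance to the main start was 68.5 bp. Among motif counts, NRF1 fell from 4 to 2 genes in the window from 100 bp before the start, the E-box from 9 to 3 there and to 4 at the summit, and CRE from 13 to 8 at the summit. The share of pseudogenes with a peak was 1.53% for overlap with the pseudogene itself and 2.84% away from protein-coding starts. The causes of these changes were not tested. The other 46 values moved by no more than the SD of the replicates or no more than 1.5 times. The settings without the paralogs, without Rpl15 and with RefSeq starts were chosen after seeing the data. No paired analysis was possible because both samples belong to 1 group. The lowest peaks held 10 and 11 tags, which limits what can be said of genes without a peak. Depth and the genome-size preset both enter this floor and cannot be told apart here.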
